A study of Mus musculus with 22 samples.

Results

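The genes described here encode 8 proteins of the red cell membrane and of the skeleton beneath it: Sptb, Ank1, Slc4a1, Epb42, Rhag, Rhd, Ermap and Kel. They were taken by name from 47311 genes, by summing the values of all transcripts of each gene in each library, and the rule itself uses no measured value. The members were, however, chosen with earlier results of these data known. RNA came from bone marrow of C57BL/6 mice with floxed Arid1a alleles (f/f), the gene of a subunit of the SWI/SNF chromatin remodelling complex. KO mice carried Mx1-Cre, which is induced by interferon and removes exon 9 of Arid1a in every cell type that responds, and WT mice were f/f without Cre. Both genotypes received 5 doses of 300 µg poly(I:C) at 8 to 14 weeks of age and were examined 4 weeks later. The 3 precursor populations were sorted from the Lin-Kit+Sca1- fraction of 3 WT and 3 KO mice, with 1 library of each population a mouse: CMP (common myeloid; CD34+ with low FcγRII/III), GMP (granulocyte-monocyte; CD34+ with high FcγRII/III) and MEP (megakaryocyte-erythroid; negative for both). LT-HSCs (CD34-Flt3- LSK cells) came from 2 other WT and 2 other KO mice, through a kit for small RNA amounts that the precursors did not share, so that kit and population cannot be told apart and LT-HSCs were not tested against the precursors.

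A red cell keeps its shape because a lattice of spectrin, actin and their partners is tied to the lipid bilayer. Beta-spectrin (Sptb) binds ankyrin (Ank1), which in turn holds the anion exchanger AE1 (Slc4a1) together with the transglutaminase-like protein encoded by Epb42 and the Rh proteins Rhag and Rhd. Inherited loss of spectrin, ankyrin, AE1 or the Epb42 protein is a known cause of spherocytosis. Rhag is a channel for ammonia, and Rhd is the Rh blood group gene of the mouse. Ermap carries Scianna antigens in humans, and Kel is a zinc endopeptidase and the Kell antigen. These genes are switched on as erythroid precursors mature, and Slc4a1 is among the later ones.

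The 22 libraries held 40804031 to 65930737 estimated counts on genes. Arid1a, whose transcript is still made after the loss of 1 exon, had 70.8 to 80.4 TPM (a level scaled for transcript length and for the size of the library) in KO CMP against 77.5 to 84.1 TPM in WT, 45.7 to 52.0 against 51.5 to 53.4 TPM in MEP, and 42.9 to 46.5 against 57.7 to 78.3 TPM in GMP. In LT-HSCs it had 10.7 to 10.9 TPM in KO and 23.7 to 29.9 TPM in WT, and a sum over all transcripts does not read the deleted exon itself. The sort was checked against transcripts of its surface markers. Cd34 lay at 423 to 455 TPM in WT CMP and 0.742 to 10.9 TPM in WT MEP, and Fcgr3 lay at 259.5 to 283.6 TPM in WT GMP and 0.458 to 1.01 TPM in WT MEP. In KO, Fcgr3 was lower in CMP (4.93 to 5.70 TPM against 8.62 to 13.8 TPM in WT, log2 fold change -1.24 ± 0.19) and in MEP (-2.21 ± 0.48, adjusted p = 0.0132, edgeR), Flt3 was higher in CMP (0.94 ± 0.15), and the other sort markers of 6 did not pass in either. In GMP, 1 of the 6 sort markers was higher and 2 were lower in KO, where 17.5% of all genes were higher and 16.3% lower. The paper reports less CD34 on the surface of KO CMP and GMP, and a higher frequency of MEP in KO marrow. The part of such shifts between the gates in the results below was not tested. One library stood apart. The WT LT-HSC library S245 had the smallest total yet 27191 genes with at least 10 counts, against 18504 to 22407 genes in the other 3 LT-HSC libraries, and the LT-HSC comparison is therefore given with and without it.

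Across the WT populations, 7 of the 8 genes had their highest mean in MEP, Slc4a1 had its highest in LT-HSC, and all 8 had their lowest in GMP. Ermap was the most abundant of the 8 by TPM in every group except WT GMP, where Kel came first. In WT MEP, Ermap lay at 481, 499 and 498 TPM in animals 300, 305 and 309, Kel at 207, 235 and 234 TPM, and Rhd at 169.8, 215 and 172 TPM. These were followed by Rhag with 109.7, 142 and 113 TPM and by Ank1 with 62.0, 76.7 and 62.5 TPM. Sptb and Epb42 were lower, with 17.3, 31.9 and 19.8 TPM and with 10.99, 21.4 and 9.48 TPM, and animal 305 gave the highest WT MEP value of all 8 genes. Slc4a1 was hardly present, with 0.510, 1.10 and 0.352 TPM. WT MEP libraries thus held every member but Slc4a1 at 9.48 TPM or more, and Slc4a1 at 1.10 TPM or less.

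**Figure D1:**
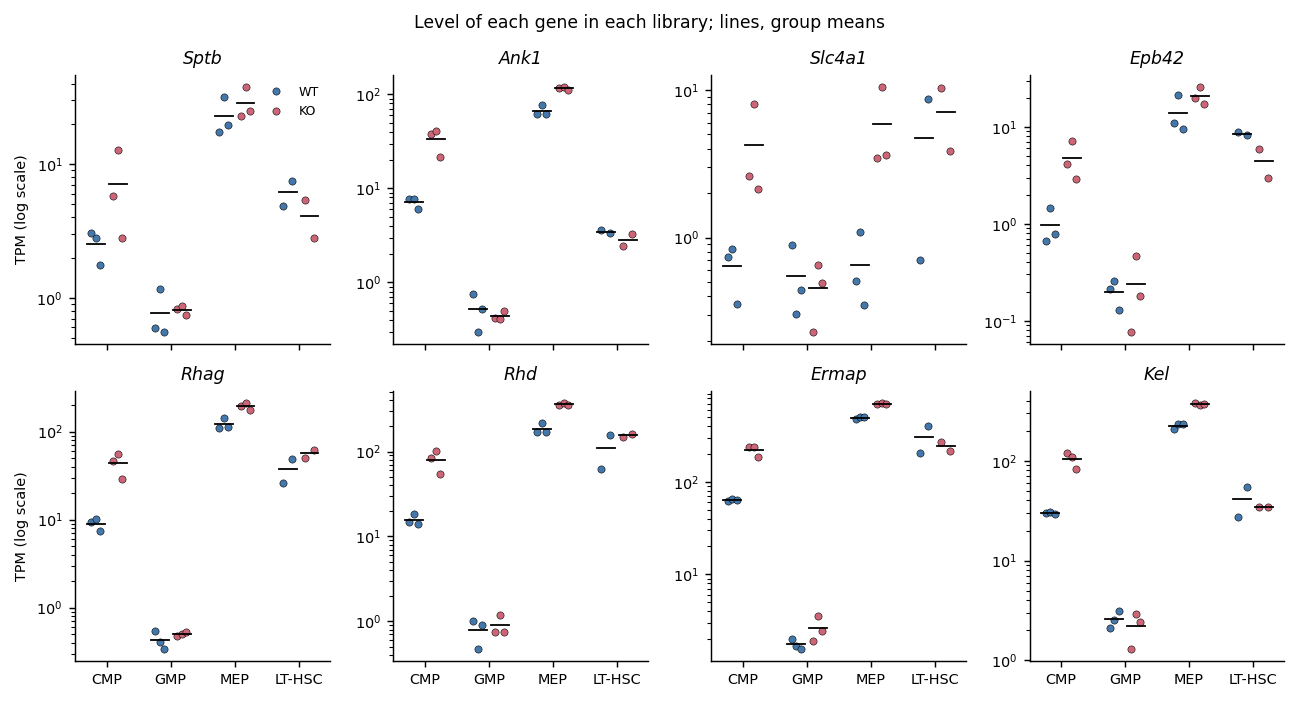
TPM of each gene (log scale) in each library, by population, for WT (blue) and KO (red), with lines at the group means of 3 libraries (2 for LT-HSC). All but Slc4a1 step up from GMP to CMP to MEP in WT, and the KO points of CMP lie above the WT points except for 1 KO library of Sptb.

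Against WT CMP, 7 of the 8 genes were higher in WT MEP at a false discovery rate under 0.1 (edgeR with the animal as a block), where 34.4% of all 17476 genes tested were higher and 38% lower. The fold changes ran from 8.29 for Kel to 16.9 for Rhag (log2 fold change 4.08 ± 0.10, standard error, adjusted p = 3.03e-08, edgeR), and in each of the 7 all WT MEP libraries lay above all WT CMP libraries, as in 33.9% of genes (36.9% lay below). Slc4a1 did not pass, with 0.737, 0.832 and 0.357 TPM in WT CMP and a log2 fold change of 0.51 ± 0.43 (adjusted p = 0.329, edgeR), which became 0.80 (adjusted p = 0.0915, edgeR) without animal 300. Among the 8 the median log2 fold change was 3.47, against -0.05 over all genes tested.

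WT GMP held the lowest values. Ermap lay at 1.58 to 1.98 TPM and Kel at 2.09 to 3.14 TPM there, and the other 6 genes were at most at 1.17 TPM in a WT GMP library. Against WT CMP, 7 of 8 were lower in GMP, where 24.2% of all genes were lower and 21% higher, and in each of the 7 the groups did not overlap (25.6% of genes lay below and 22.8% above). Ermap fell furthest, by 5.01 ± 0.07 on the log2 scale (adjusted p = 5.7e-09, edgeR), Ank1 fell by 4.32 ± 0.13 and Epb42 by 1.82 ± 0.18. Slc4a1 again did not pass in GMP against CMP (log2 fold change -0.13 ± 0.44, adjusted p = 0.851, edgeR). Between WT MEP and WT GMP, 7 of 8 were higher in MEP (36.1% of all genes, with 36.5% lower), from 51.4-fold for Epb42 to 314-fold for Rhag, and none of the 7 overlapped (34.7% of genes lay above and 34.8% below). Slc4a1 had 0.63 ± 0.45 (adjusted p = 0.239, edgeR), and 1.42 (adjusted p = 0.0130, edgeR) without animal 300, whose WT GMP value was the highest. These 3 comparisons use the same 9 WT libraries.

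In LT-HSCs the order of the genes was partly different. Ermap lay at 205 and 402 TPM in the WT libraries S245 and S269, Rhd at 61.6 and 158 TPM, Rhag at 26.2 and 48.8 TPM and Kel at 27.5 and 55.0 TPM. Ank1, by contrast, was at 3.61 and 3.33 TPM and had the lowest mean of the 8 in WT LT-HSC. By their WT means, 6 of the 8 genes were ordered MEP, LT-HSC, CMP and GMP, in TPM and in counts per library size alike. Ank1 was higher in CMP than in LT-HSC, and Slc4a1 had its highest mean in LT-HSC, with 0.710 TPM within the range of the WT precursors and 8.73 TPM above it. The LT-HSC and CMP ranges overlapped in Kel, and the LT-HSC range lay above the CMP range and below the MEP range in Sptb, Epb42, Rhag, Rhd and Ermap. The LT-HSC libraries carried their defining transcripts, with 5 stem cell markers summing to 330 and 435 TPM in WT against 34.7 to 46.4 TPM in WT CMP. They also held the erythroid factor Klf1 at 153 and 359 TPM and 4 hemoglobin chains at 3846 and 1117 TPM in sum, against 121 to 424 TPM in WT MEP, and the part of such transcripts in the LT-HSC values was not tested.

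These genes were higher in CMP of Arid1a KO mice. All 8 were higher in KO CMP than in WT CMP at a false discovery rate under 0.1 (edgeR), a test that 10.6% of 17214 genes passed in that direction and 12.8% in the other. In 7 of the 8 every KO library lay above every WT library, as in 15.7% of all genes tested (18.3% lay below), and the median log2 fold change was 2.06 against -0.003 over all genes. Since the members were chosen with earlier results known, the shares over all genes describe this contrast and do not test it. In bulk RNA a larger number of cells that express a gene cannot be told apart from more RNA per cell.

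Sptb, the spectrin chain that binds ankyrin, was the least secure of these rises. It lay at 3.08, 2.81 and 1.77 TPM in WT CMP (animals 300, 305 and 309) and at 5.80, 12.8 and 2.79 TPM in KO CMP (animals 301, 304 and 308). KO animal 308 fell within the WT range. The log2 fold change was 1.38 ± 0.48 (adjusted p = 0.0843, edgeR), and DESeq2 gave 1.38 with an adjusted p of 0.128. Without KO animal 304 the value was 0.60 (adjusted p = 0.247, edgeR), and the gene passed in only 1 of the 6 fits that left out 1 library, the one without KO animal 308 (1.77, adjusted p = 0.00952, edgeR).

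Ank1, the anchor of the lattice, was at 7.69, 7.77 and 6.11 TPM in WT CMP and at 37.9, 40.5 and 21.4 TPM in KO CMP. The groups were far apart, with a log2 fold change of 2.05 ± 0.20 (4.14-fold, adjusted p = 0.000304, edgeR). Slc4a1 went from 0.737, 0.832 and 0.357 TPM to 2.62, 8.01 and 2.14 TPM, again without overlap. It had the largest fitted change of the 8 and the widest error, 2.73 ± 0.58 on the log2 scale (adjusted p = 0.0123, edgeR), and without KO animal 304, whose value was the highest, it was 1.88. Epb42 went from 0.659, 1.45 and 0.779 TPM to 4.17, 7.20 and 2.88 TPM (2.07 ± 0.38, adjusted p = 0.00602, edgeR).

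The Rh genes moved by similar amounts. Rhag rose from 9.35, 10.1 and 7.44 TPM in WT CMP to 46.9, 55.5 and 29.2 TPM in KO CMP (log2 fold change 2.19 ± 0.22, adjusted p = 0.000299, edgeR), and Rhd from 14.9, 18.4 and 13.95 TPM to 83.7, 101.8 and 54.0 TPM (2.24 ± 0.21, adjusted p = 0.000267, edgeR). Ermap rose from 62.0, 65.1 and 63.8 TPM to 237, 239 and 185 TPM (1.66 ± 0.10, adjusted p = 3.74e-05, edgeR). Kel rose from 29.6, 30.5 and 29.2 TPM to 119, 109 and 82.6 TPM (1.71 ± 0.11, adjusted p = 4.47e-05, edgeR). The spread among WT animals was small in Ermap and Kel, and in KO CMP animal 308 held the lowest value of all 8 genes while animal 304 held the highest of 7.

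**Figure D2:**
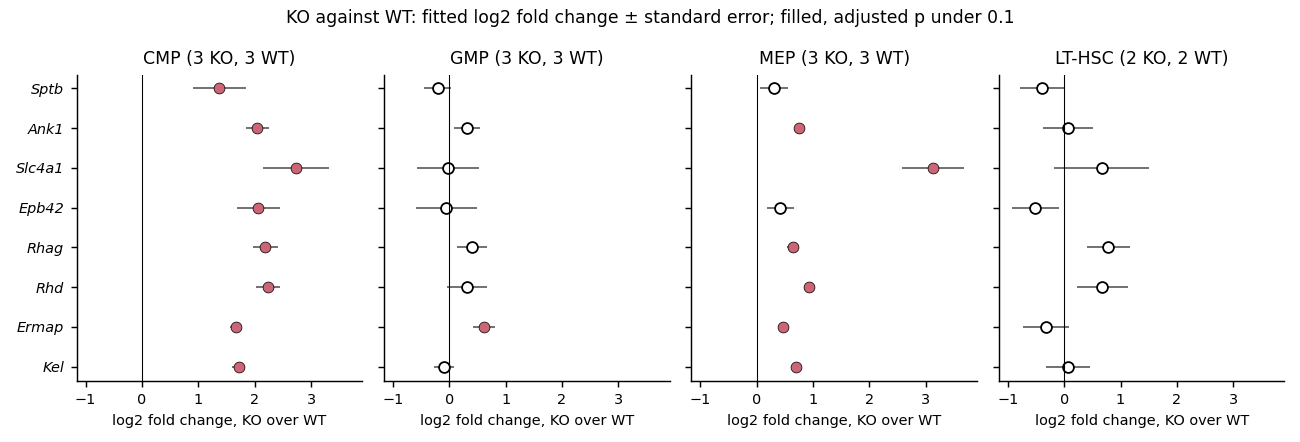
Fitted log2 fold change of KO over WT with its standard error for each gene in CMP, GMP, MEP (3 against 3 libraries each) and LT-HSC (2 against 2); filled points have an adjusted p under 0.1 (edgeR). All 8 points are filled in CMP, 6 in MEP, 1 in GMP and 0 in LT-HSC.

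Relative to the mean of WT MEP, the mean TPM of WT CMP was 6.91% (Epb42) to 13.2% (Kel) for the 7 genes other than Slc4a1, and that of KO CMP was 30.9% (Sptb) to 49.5% (Ank1). Slc4a1 was at 98.3% in WT CMP and 651% in KO CMP, since WT MEP held so little of it. Other transcripts moved between the CMP groups too. The 4 hemoglobin chains summed to 49.4 to 127 TPM in WT CMP and 631 to 878 TPM in KO CMP, 5 primary granule markers to 3942 to 4797 TPM in WT and 1747 to 2710 TPM in KO, and 10 megakaryocyte markers to 803 to 1178 TPM in WT and 642 to 663 TPM in KO. Of the 10 megakaryocyte markers, 7 were lower and 2 higher in KO CMP, where 12.8% of all genes were lower and 10.6% higher. Basophil and mast cell markers (5 genes) summed to 104 to 267 TPM in WT and 72.3 to 80.4 TPM in KO. The 5 stem cell markers summed to 34.7 to 46.4 TPM in WT and 57.7 to 64.1 TPM in KO, with 2 of them higher and 2 lower. None of the markers in those 5 lists was at 3 counts or fewer in all libraries of a CMP group, and the part of other cells within the gate in the rise of the 8 genes was not tested.

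The DNA before the start of 6 of the genes could be read from the RefSeq promoter table of GRCm38.p6. Ank1 and Slc4a1 are not in that table, and distances below are to the starts that it gives. Within 250 bases before the start, 5 of the 6 (Epb42, Rhag, Rhd, Ermap and Kel) held a GATA hexamer (AGATAA, its form that ends in G, written AGATAG, and the forms of both that begin with T, written TGATAA and with the last base changed TGATAG, on either strand). These are the letters that GATA factors such as the erythroid factor GATA1 bind, and 27.1% of 27025 promoters of the same length held a match. In 4 genes it lay within 100 bases of the start, as did 10.6% of promoters. Of these 4, Rhag, Ermap and Kel are printed because the match lies near the start, each as the 150 bases that end with the match nearest the start, on the strand of the gene, with every GATA hexamer in capitals.
Rhag, chr17:40810974-40811123, plus strand: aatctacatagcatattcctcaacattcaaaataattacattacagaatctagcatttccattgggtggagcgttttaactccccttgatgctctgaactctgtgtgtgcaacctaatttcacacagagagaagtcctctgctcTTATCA
Ermap, chr4:119190057-119190206, minus strand: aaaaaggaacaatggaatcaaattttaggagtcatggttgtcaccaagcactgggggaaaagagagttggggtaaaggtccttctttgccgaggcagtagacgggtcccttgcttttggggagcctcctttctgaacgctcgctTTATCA
Kel, chr6:41704339-41704488, minus strand: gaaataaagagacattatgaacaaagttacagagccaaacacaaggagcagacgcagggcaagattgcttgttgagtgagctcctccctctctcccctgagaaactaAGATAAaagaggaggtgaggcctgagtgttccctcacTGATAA
The match ended 26 bases before the RefSeq start in Rhag and 62 in Ermap, and Kel held a pair that ended 51 and 14 bases before it. The annotated transcripts begin elsewhere: Rhag-201 at 40811126, Ermap-206 at 119190011 and Kel-201 at 41704339, the last base printed for Kel. By those starts these matches lie nearer. In Epb42 the match lay 221 to 226 bases before the RefSeq start. Its window, 121036878 to 121037127, takes in the annotated start of the gene at 121037072, and the match lies nearer to that start. The window is not the one before Epb42-205, a short transcript that begins at 121022016. That transcript held 24.5% of the Epb42 TPM and 5.29% of its estimated counts in WT MEP. The Sptb window held no GATA hexamer but 3 matches on either strand, 2 of them overlapping, to CCNCNCCC, the letters of KLF factors, which 45.6% of promoters held and no other member did. That window lies before the start of the longest Sptb transcript, whereas most Sptb reads were assigned to Sptb-202, which begins downstream of it. An E-box (CANNTG) was present in Sptb, Epb42 and Kel and in 66% of all promoters. A match describes letters only and does not show that a factor is bound.

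In MEP, 6 of the 8 genes were higher in KO at a false discovery rate under 0.1 (edgeR), against 14% of 15777 genes (15.4% were lower), and in these 6 every KO library lay above every WT library (18.7% of all genes, with 20% below). Sptb and Epb42 did not pass. The median log2 fold change of the 8 was 0.66, against -0.002 over all genes.

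Slc4a1 stood out in size. From 0.510, 1.10 and 0.352 TPM in WT MEP it rose to 3.43, 10.5 and 3.60 TPM in KO MEP, a log2 fold change of 3.12 ± 0.55 (8.71-fold, adjusted p = 0.00538, edgeR) that lay between 2.39 and 3.71 when each library was left out. Ank1 rose to 117.5, 120.3 and 111.6 TPM (0.76 ± 0.09), Rhd to 357, 369 and 352 TPM (0.93 ± 0.09), and Kel to 375, 363 and 367 TPM (0.69 ± 0.06). Rhag rose to 193.5, 209 and 178 TPM (0.64 ± 0.10). Ermap rose the least of those that passed, to 697, 705 and 695 TPM, with a log2 fold change of 0.46 ± 0.04 (adjusted p = 0.000289, edgeR). Sptb lay at 22.9, 37.9 and 25.1 TPM in KO MEP and overlapped the WT values (0.30 ± 0.25, adjusted p = 0.460, edgeR), and Epb42 lay at 19.7, 25.9 and 17.1 TPM (0.42 ± 0.24, adjusted p = 0.269, edgeR). The Sptb and Epb42 values of WT animal 305 were the highest of the WT MEP libraries. Without that library Sptb had a log2 fold change of 0.61 (adjusted p = 0.0480, edgeR) and Epb42 one of 0.78 (adjusted p = 0.00476, edgeR). The 4 hemoglobin chains of that library summed to 424 TPM, against 121 and 134 TPM in the other WT MEP libraries, and to 592 to 1015 TPM in KO MEP. The 10 megakaryocyte markers summed to 32.1 to 56.1 TPM in WT MEP and 85.4 to 109 TPM in KO MEP, the 5 primary granule markers to 26.3 to 59.9 and 28.5 to 40.1 TPM, the 5 stem cell markers to 1.58 to 5.23 and 8.53 to 9.57 TPM, and the part of such transcripts in the MEP result was not tested.

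In GMP the 8 genes were low in both genotypes. Ermap alone passed, with a log2 fold change of 0.62 ± 0.19 (adjusted p = 0.0410, edgeR), where 17.5% of 16383 genes were higher and 16.3% lower. Its values were 1.98, 1.69 and 1.58 TPM in WT and 1.92, 3.53 and 2.42 TPM in KO, so that KO animal 301 lay within the WT range by TPM, and the call was lost without KO animal 304 (adjusted p = 0.124), KO animal 308 (0.126) or WT animal 309 (0.146, edgeR in each case). The other 7 had log2 fold changes between -0.21 (Sptb) and 0.40 (Rhag).

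None of the 8 passed in LT-HSC (edgeR), where 0.0264% of 22733 genes were higher and 0.0528% lower, and none of the 8 had an unadjusted p under 0.05. The log2 fold changes ran from -0.51 ± 0.41 for Epb42 to 0.79 ± 0.38 for Rhag (adjusted p = 0.876 for both, edgeR). In the KO libraries S244 and S270, Rhag lay at 50.7 and 62.2 TPM, above both WT libraries, and Epb42 at 5.85 and 2.96 TPM, below the 8.87 and 8.19 TPM of WT. Of all genes, 16.9% lay above and 19.4% below in that way, and the other 6 members overlapped, Rhd for example at 150 and 161 TPM in KO. The WT libraries lay far apart from each other, and the calls depended on which of them was kept. Without S245 only Ermap passed, as lower in KO (-0.80, adjusted p = 0.0120, edgeR), and without S269 Slc4a1 (3.66), Rhd (1.71), Rhag (1.47) and Kel (0.85) passed as higher. With 1 WT library left, that library is assumed to vary as the KO pair does.

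On the log2 scale the effect of genotype differed between the populations. The scale matters, since in every member the rise in mean TPM was larger in MEP than in CMP. Rhd, for example, went from 15.8 to 79.8 TPM in CMP and from 185.6 to 359 TPM in MEP. An interaction term was tested over the 18 precursor libraries, with a block for each animal. By this test 6 of 8 genes had a smaller log2 fold change of KO over WT in MEP than in CMP, against 7.37% of 18523 genes (5.67% had a larger one). The difference was largest in Epb42 (-1.53 ± 0.30, adjusted p = 0.00517, edgeR) and Rhag (-1.52 ± 0.18, adjusted p = 0.000142, edgeR). Sptb had -0.85 ± 0.37 (adjusted p = 0.199, edgeR), and -1.32 (adjusted p = 0.00881, edgeR) without animal 308. Slc4a1 differed from the others in sign, at 0.38 ± 0.47 (approximate 95% interval -0.53 to 1.30, adjusted p = 0.727, edgeR), an interval that does not show equal effects. In means, MEP held 7.58 (Kel) to 14.5 (Epb42) times the TPM of CMP in WT for the 7 genes other than Slc4a1, and 3.17 (Ermap) to 4.50 (Rhd) times in KO. For Slc4a1 the ratio was 1.02 in WT and 1.37 in KO.

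**Figure D3:**
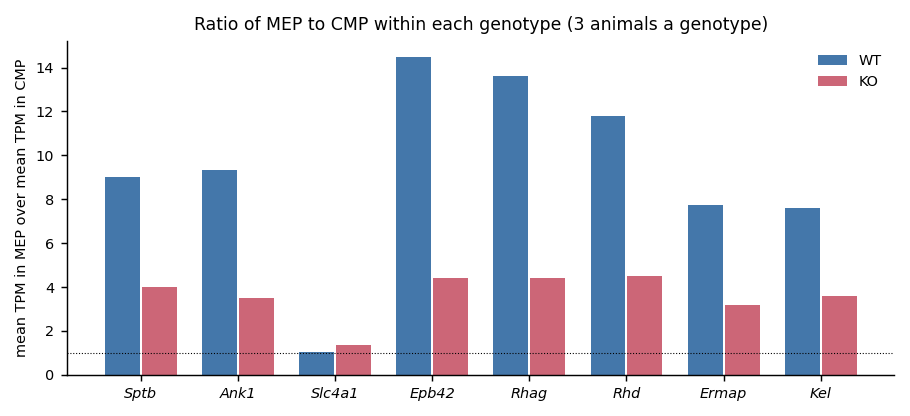
Mean TPM in MEP over mean TPM in CMP for each gene, in WT (blue bars) and KO (red bars), 3 animals a genotype; the dotted line marks a ratio of 1. The ratio is lower in KO for 7 genes, and Slc4a1 stays near 1 in both genotypes, at 1.02 and 1.37.

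The effect was smaller in GMP than in CMP in all 8 genes (10% of all genes, with 10.9% larger), from -1.05 ± 0.17 in Ermap to -2.69 ± 0.50 in Slc4a1. The Sptb difference (-1.45 ± 0.46, adjusted p = 0.0476, edgeR) did not pass without the animal block (adjusted p = 0.135, edgeR), nor with an offset for transcript length (0.250), nor without animals 301, 304 or 309. Between MEP and GMP the effect was larger in MEP for Slc4a1 (3.07 ± 0.51, adjusted p = 0.000715, edgeR) and Kel (0.78 ± 0.16, adjusted p = 0.00297, edgeR), where 12.2% of all genes were larger and 14.6% smaller. The other 6 did not pass, though Rhd, at 0.66 ± 0.37 (adjusted p = 0.254, edgeR), had 1.03 (adjusted p = 0.0636, edgeR) without animal 305.

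In CMP and MEP the same animal of each genotype was highest for most members, which correlate with each other and are not independent counts. Among the KO libraries, animal 304 was highest for 7 of 8 members in the CMP set, for 6 in that of GMP and for 7 in that of MEP. Among the WT libraries animal 305 was highest for 7, 2 and 8 members in the same order, and in WT GMP animal 300 was highest for 5. Over the 18 precursor libraries, which share populations and animals, log2(TPM + 1) of Ank1, Rhag and Rhd had pairwise Pearson correlations of 0.998 to 0.999, and Slc4a1 correlated with the other 7 at 0.594 (Ermap) to 0.656 (Epb42). The 5 genes outside the 8 whose pattern was most like the mean of the 8 standardized profiles, among 13766 genes with a mean of at least 1 TPM, were Cldn13 (r = 0.995), Steap3 (0.993), Gdpd1 (0.991), Acmsd (0.990) and Ryk (0.990). Cldn13 was also the closest gene to Ank1, Rhag and Rhd, Epor (the erythropoietin receptor) to Ermap at 0.998, Sphk1 to Kel at 0.998, Btnl10 to Sptb at 0.994, Mboat2 to Epb42 at 0.993, and Ifi35 to Slc4a1 at 0.931. Cldn13 lay at a mean of 10.5 TPM in WT CMP, 71.5 TPM in KO CMP, 167 TPM in WT MEP and 344 TPM in KO MEP.

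The annotation divides these genes into transcripts of very different length. Rhag (chromosome 17, 40811126 to 40840754) has 1 transcript in the files, Rhd (chromosome 4, 134864536 to 134896172) has 2, of which Rhd-201 held 99.8% of the TPM in WT MEP, and Slc4a1 (chromosome 11, 102348824 to 102366203) has 5, of which Slc4a1-201 with 20 exons held 98.8%. Sptb (chromosome 12, 76580488 to 76710547) was carried in WT MEP by Sptb-202 with 32 exons (91.7%) and to 7.14% by Sptb-201 with 36 exons. The share of Sptb-201 was 24.9% in WT CMP and 11.3% in KO CMP, with no overlap between the 3 WT libraries (22.9% to 28.8%) and the 3 KO libraries (9.24% to 15.0%). Its mean level was 0.621 TPM in WT CMP and 0.718 TPM in KO CMP, whereas Sptb-202 had 1.78 and 6.25 TPM, and the difference in share was not tested. Ank1 (chromosome 8, 22974844 to 23150497) was spread over Ank1-213 (44.7% in WT MEP), Ank1-207 (15.9%) and Ank1-206 (13.8%), each with over 40 exons. In WT LT-HSC Ank1-213 held 5.94%.

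Epb42 (chromosome 2, 121017891 to 121037072), Ermap (chromosome 4, 119175457 to 119190011) and Kel (chromosome 6, 41686330 to 41704339) had much of their TPM on short transcripts. In WT MEP, transcripts with at least 8 exons held 44.3% of the TPM of Epb42, 68.9% of that of Ermap and 47.1% of that of Kel. The full Kel-201 with 19 exons held 45.5% of the TPM but 89.4% of the estimated counts, since counts on the short Kel-202 (422 bases) and Kel-203 (384 bases) weigh more per length. Counted on Kel-201 alone, the mean went from 15.8 TPM in WT CMP to 55.7 TPM in KO CMP and from 103 to 168 TPM in MEP. In Ermap the LT-HSC libraries differed from the precursors. Ermap-204, a transcript of 4 exons and 606 bases, held 28.2% of the TPM in WT LT-HSC and 0.401% in WT MEP, and the transcripts with at least 8 exons summed to 79.4 TPM in WT LT-HSC, 46.3 TPM in WT CMP and 339 TPM in WT MEP. Restricted in the same way, a choice made after the values were seen, Epb42 was highest in WT LT-HSC, at 6.94 TPM against 5.93 TPM in WT MEP, and the place of LT-HSC among the WT populations was otherwise unchanged.

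**Figure D4:**
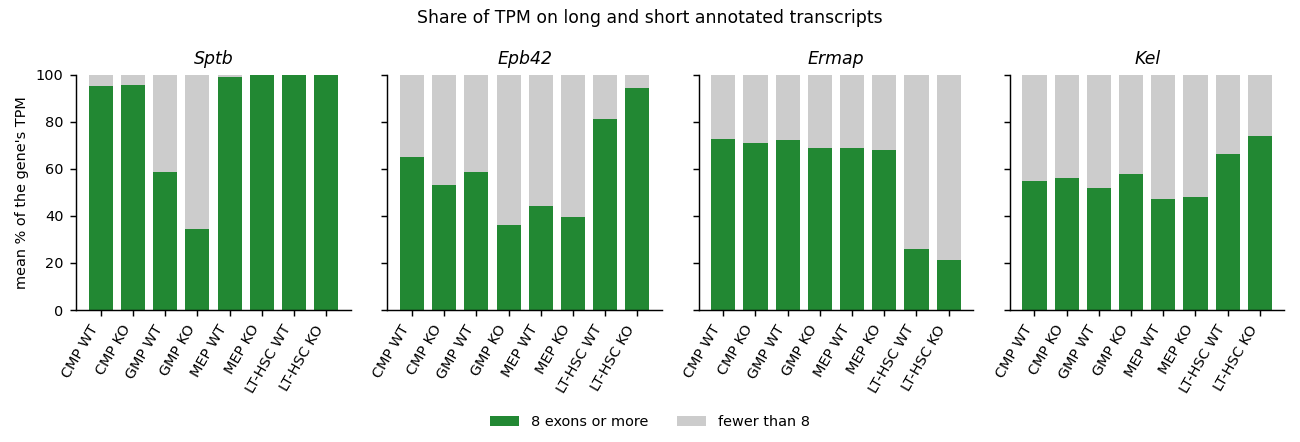
Mean percent of the gene's TPM on annotated transcripts with at least 8 exons (green) and with fewer (grey), for Sptb, Epb42, Ermap and Kel in the 8 groups (3 libraries each, 2 for LT-HSC). In LT-HSC the long transcripts hold 25.8% (WT) and 21.1% (KO) of the TPM of Ermap, against 67.8% or more in the precursors.

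Neighbours overlap 3 of the loci in the annotation. Ank1 shares exonic sequence with the antisense gene Gm15816 (at most 302 counts in a library, against up to 32164 for Ank1), Sptb touches Plekhg3 at its last base, and Gm37527 (at most 952 counts) lies between exons of Kel, on the same strand. The source used here does not state whether counting used strand.

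Other proteins of the red cell cortex were compared in the same fits, in which 10.6% of all genes were higher and 12.8% lower in KO CMP, and 14% higher and 15.4% lower in KO MEP. Of 10 other skeleton proteins, 4 were higher and 1 lower in KO CMP, with a median log2 fold change of 0.16, and 8 were higher and 1 lower in KO MEP, with a median of 0.43. Dmtn, which bundles actin at the spectrin junctions, had the largest rise in both, at 3.32 ± 0.56 in CMP and 2.13 ± 0.32 in MEP. The adducin gene Add2 rose by 1.74 ± 0.18 in CMP. In MEP, Tmod1, which caps actin, rose by 1.34 ± 0.34 from a low level. Its mean was 0.366 CPM (counts scaled to the size of the library) in WT MEP and 0.944 CPM in KO MEP. Tpm1, a tropomyosin, was the 1 gene of this list that was lower, in CMP by -0.40 and in MEP by -0.61 on the log2 scale.

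Of 22 other membrane proteins, 8 were higher and 3 lower in KO CMP (median 0.18; the share lower was near that of all genes), and 12 were higher and 5 lower of the 21 tested in KO MEP (median 0.34). The largest changes in CMP were in the cholesterol-binding protein gene Tspo2 (1.35 ± 0.07), in Cd59a (1.16 ± 0.09), which shields cells from complement, and in the water channel Aqp1 (0.92 ± 0.06). In MEP they were in the glucose transporter Slc2a1 (1.63 ± 0.39), Cd59a (1.49 ± 0.10) and the calcium pump Atp2b4 (1.33 ± 0.12). Slc2a1 was at a low level, with a mean of 0.943 CPM in WT MEP and 2.98 CPM in KO MEP. Cd59a had 20.99 CPM in WT MEP and 59.05 CPM in KO MEP, and Atp2b4 had 81.55 and 205.3 CPM.

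Of the 13 paralogs, 10 were tested in CMP, where 1 was higher, a share near that of all genes, and 3 were lower in KO (median log2 fold change -0.175), and in MEP 4 of 10 were higher and 3 lower (median 0.74). In CMP the 1 higher paralog was Tgm2 (1.40 ± 0.20), the transglutaminase related to Epb42, and Ank3 (-1.44 ± 0.32), Slc4a2 (-0.23 ± 0.06) and the spectrin Sptbn1 (-0.20 ± 0.07) were lower. Sptbn1 was higher in KO MEP, at 1.34 ± 0.16. In WT MEP the 13 paralogs summed to 50.7 to 53.7 TPM against 167 to 182.5 TPM in WT CMP. Among 8 heme synthesis enzymes, 7 were higher and 0 lower in KO CMP (median 0.75) and 7 higher and 1 lower in KO MEP (0.73). Alas2, the erythroid enzyme of the first step, led them with 3.02 ± 0.30 in CMP and 2.97 ± 0.28 in MEP. All 4 adult hemoglobin chains were higher in both, with a median log2 fold change of 2.97 in CMP and 1.72 in MEP. Of 9 erythroid factors, counted with Epor, 3 were higher in KO CMP, namely Epor (1.25 ± 0.12), Klf1 (1.15 ± 0.13) and Gata1 (0.35 ± 0.12), and in MEP 4 were higher and 2 lower.

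**Figure D5:**
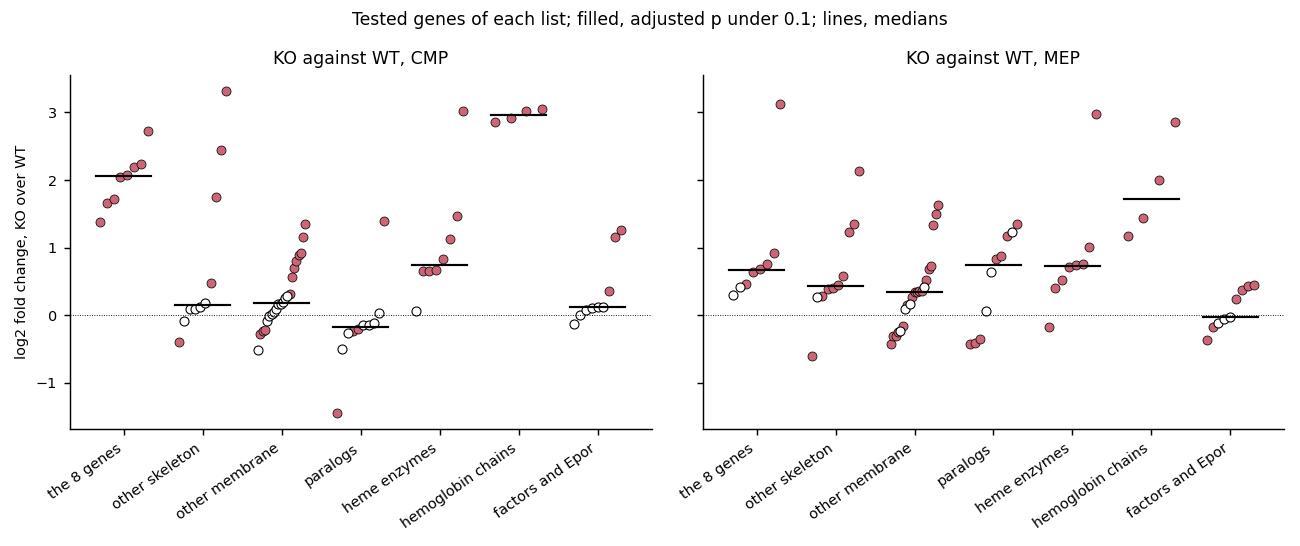
Log2 fold change of KO over WT in CMP (left) and MEP (right) for each tested gene of 7 lists; filled points have an adjusted p under 0.1 (edgeR) and lines are medians. In CMP the 8 genes lie between 1.38 and 2.73, and the medians of the other skeleton and membrane lists are 0.16 and 0.18. The median of the hemoglobin chains in CMP is 2.97, above the 2.06 of the 8 genes.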

How the data were processed

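RNA-seq of 22 libraries of sorted mouse bone marrow cells was used: CMP, GMP and MEP of 3 WT and 3 KO mice, and LT-HSCs of 2 and 2. Per the study's methods and the labels, the authors assigned 100-base paired reads to Ensembl 84 transcripts (mm10) with kallisto 0.43.1 and analysed the counts with DESeq2 1.18.1. The deposited estimated counts divide shared fragments between transcripts, so that a member's isoforms depend on that estimate. The TPM values the authors deposited are scaled for effective transcript length, and the deposited effective lengths (another unit, in bases) served only as an offset.

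Here 114200 of 115088 transcripts (99.2%) were paired with genes of GENCODE M21, and unpaired transcripts held 0.233% to 0.363% of the counts. Estimated counts were summed per gene, rounded, and tested with edgeR 4.0.16 (R 4.3.3; TMM, filterByExpr, quasi-likelihood F-test, Benjamini-Hochberg over all genes tested, threshold 0.1). Each population was fitted apart with genotype as the only term. Populations in WT, and interactions in the 18 precursor libraries, had the animal as a block, since each mouse gave 3 libraries (deviations of libraries of 1 mouse correlated by 0.273 on average over 18 pairs, from 0.006 to 0.423). Each standard error was taken from the F statistic, as the size of the log2 change over its root. TPM is corrected for transcript length and the fitted folds are not. No duplicated library was found. Fits were tested on simulated counts. Intervals use a normal quantile and are narrower than the F-test implies. The interval given for an interaction is from a fit with the animal as a block. It therefore leaves out differences between mice that the populations share.

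Alternatives were median-of-ratios scaling, upper-quartile scaling in WT comparisons, no filter on low counts, a length offset, DESeq2 1.42.0, all precursors in 1 fit, CPM or count shares in place of TPM, long transcripts only (chosen after seeing the data), the block, and each library or mouse left out. Sequences are from RefSeq (GRCm38.p6). Named genes are the 8 members, up to 3 genes a list with the largest change past the threshold in CMP and MEP, and the nearest patterns, except that some genes and 1 promoter are not reported here. Tpm1, Sptbn1 in CMP, Klf1 in LT-HSC, Cd34, Fcgr3, Flt3 and the overlapping neighbours fall outside that rule and were chosen after their values were seen. The members and lists were chosen with earlier results of these data known. ATAC-seq was not analysed here.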

Additional observations from a re-analysis of the deposited data

Results flagged for a closer look

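The genotype effect (log2 fold change of KO over WT) differed between populations, by a test of the interaction with edgeR at an adjusted p under 0.1, in the following genes. It was smaller in MEP than in CMP by -1.26 in Ank1, -1.53 in Epb42, -1.52 in Rhag, -1.27 in Rhd, -1.21 in Ermap and -1.02 in Kel on the log2 scale. It was smaller in GMP than in CMP by -1.45 in Sptb, -1.72 in Ank1, -2.69 in Slc4a1, -2.11 in Epb42, -1.77 in Rhag, -1.93 in Rhd, -1.05 in Ermap and -1.79 in Kel. It was larger in MEP than in GMP by 3.07 in Slc4a1 and 0.78 in Kel. In fits that left out 1 animal each, these calls were kept in 6 of 6 fits for each gene except Sptb, which kept its call in 3 of 6. Groups of 2 or 3 libraries are too small for a test of single outlying libraries.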

How the results depend on the processing

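Of the counts of called members under the alternatives, 97 stayed within 1.5 times the count reported and 5 did not. In GMP the count of 1 fell to 0 without KO animal 304, KO animal 308 or WT animal 309 (range over the 6 libraries left out, 0 to 1), and in LT-HSC the count of 0 became 1 without WT library S245 and 4 without WT library S269 (range 0 to 4). Among values of single members, 766 kept their direction and side of the threshold, 14 lost a call, 13 gained one and 23 changed sign; none of those 23 belonged to a result past the threshold.

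With the length offset, the signs turned in GMP for Sptb (0.24), Ank1 (-0.11) and Epb42 (0.42) and in LT-HSC for Ank1 (-0.031) and Kel (-0.071). When 1 library was left out, the ranges that crossed zero were -0.53 to 0.81 for Slc4a1 and -0.70 to 0.36 for Epb42 in GMP. In LT-HSC they were -0.83 to 0.12 for Sptb, -0.26 to 0.48 for Ank1, -0.21 to 3.66 for Slc4a1, -0.80 to 0.41 for Ermap and -0.44 to 0.85 for Kel. For Slc4a1 in WT they were -0.62 to 0.37 (GMP against CMP) and -0.082 to 1.42 (MEP against GMP), and for Rhag (MEP less GMP) -0.013 to 0.44. The causes were not tested.

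Without the animal block, the members called were 7, 7 and 7 in the WT comparisons and 6, 7 and 2 in the interactions. The labels pair no WT with a KO mouse. Where mice that stand side by side in the study's expression columns were taken as a replicate block, 8 members were called in CMP, 1 in GMP, 8 in MEP (adding Sptb, adjusted p = 0.00439, and Epb42, 0.0157, edgeR) and 0 in LT-HSC, and Slc4a1 in GMP turned to 0.11; correlations of such pairs ran from -0.09 to 0.417, with the lowest in MEP, so the order is a hint only. Over all genes that block moved the calls in LT-HSC from 18 to 115. Genes under about 1 TPM, as most of the 8 are in GMP, have few counts and wide errors.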
